A study of Bos taurus with 6 samples.

Results

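Broad autosomal H3K27me3 domains with loose summits were described in bovine embryonic stem cells (bESC). A domain was a chain of H3K27me3 peak summits, pooled over both cell lines, in which neighbouring summits lay at most 5000 bases apart. Each chain held at least 5 summits of each line, and the median distance from a summit to the nearest summit of the other line was over 100 bases. The rule kept 215 of 7747 autosomal chains, or 215 of the 398 that had at least 5 summits in each line. Positions of H3K27me3 summits chose the domains, so their numbers, spans and distances are a description, while H3K4me3 took no part in the choice.

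The cells were primed pluripotent cells derived from blastocysts (BL-derived ESC), grown on mouse embryonic fibroblasts with human FGF2 and IWR1 and sampled at passage 12 after bead removal of the feeder cells. The groups used were H3K27me3 ChIP of lines A and B and H3K4me3 ChIP of lines A and B, with 1 library per mark and line. With 1 library each, values of the lines are given side by side, and no difference between regions or lines carries a p-value. The sources used here do not state what the peak score is. From its range of values it was taken to be the peak caller's −log10 p or q value. It moves with the depth of its library, which is unknown, so scores are also given as percentiles within their own list.

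H3K27me3 is laid down by Polycomb repressive complex 2, whose EZH2 subunit carries the methyltransferase, and it marks genes that are kept silent, many of them developmental regulators. The complex binds its own mark, so the mark can spread from a point of recruitment into a broad domain, as over the HOX clusters. H3K4me3 is written at promoters and CpG islands by SET1 and MLL complexes. Promoters that hold both marks are called bivalent and are typical of pluripotent cells. The marks were measured in separate libraries of many cells, so nearby summits need not share a molecule or a cell. The genes at these positions were not analysed here, and no sequence is shown, since no genome or annotation of the files' build, UMD3.1, was used.

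The domains were chains of many modest summits. Their span, from the first to the last pooled summit, had a median of 16.9 kb, with quartiles of 13.0 and 22.6 kb and a range of 5.93 to 86.4 kb. In all they covered 4.21 Mb. A domain held a median of 8 H3K27me3 summits for line A and 7 for line B, and at most 37 and 23. Together they took up 1993 of the 17664 autosomal H3K27me3 summits of line A (11.3%) and 1791 of the 13083 of line B (13.7%). Neighbouring summits of 1 line within a domain lay a median of 1839 bases apart for line A and 1940 for line B. More summits were listed in line A than in line B in 110 domains, and fewer in 70, and the H3K27me3 list of line A was the longer, at 25225 summits against 20684.

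By the rule, summit positions differed between the lines within the domains. The median distance to the other line ranged from 102 to 1913 bases over the domains, with a median of 390. The stretch that both lines covered made up a median of 88.3% of a domain, and the outermost summits of the lines lay a median of 799 bases apart. These values follow in part from chaining the pooled summits. In the 152 position-locked chains of autosomes, which also held at least 5 summits of each line but had a median distance of at most 30 bases, they were 99.8% and 10.5 bases. Within the domains the distance was shorter for stronger summits. With the summits of a line split into 4 classes of score, the median distance of line A was 834 bases in the lowest class and 210.5 in the highest, and that of line B 512 and 229 bases.

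The members nearest to the distance limit were all on chromosome 3, at 21156856 to 21188461, 21065193 to 21093863 and 21413305 to 21426034, with distances of 102, 104 and 104 bases. The chains just outside were on chromosome 17 at 74802896 to 74817047, chromosome 26 at 49609595 to 49633824 and chromosome 6 at 109299651 to 109309557, with 100, 99 and 97 bases. The 3 members had median H3K27me3 scores of 7.45 to 16.8 (line A) and 9.08 to 12.7 (line B), and the 3 chains outside 5.79 to 10.4 and 8.67 to 14.3. All 6 held H3K4me3 summits of both lines. The 3 chains outside did not stand for all chains below the limit. Of the 31 autosomal chains with distances over 30 and up to 100 bases, 15 (48.4%) had H3K4me3 of both lines and 13 (41.9%) had none. Over the 215 domains, at distances of 102 to 1913 bases, these shares were 80.5% and 12.6%.

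**Figure D1:**
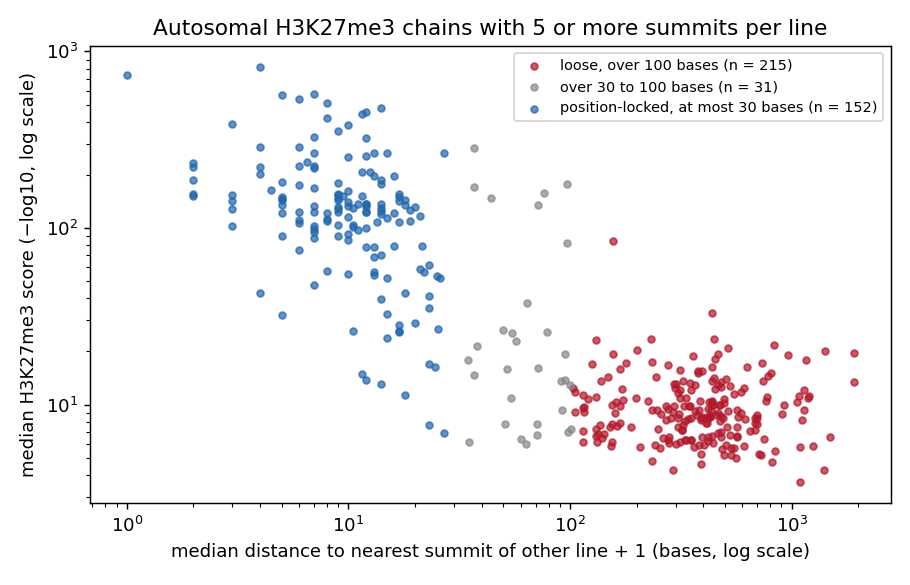
Median distance between lines (bases plus 1, log axis) against median H3K27me3 score of both lines (−log10, log axis) for the 398 autosomal chains with at least 5 summits in each line. Each point is a chain. The 215 loose domains lie at lower scores than the 152 position-locked chains, with medians of 8.98 and 128.

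H3K27me3 scores of the domains were moderate. The median score of a domain had a median of 9.35 for line A (quartiles 6.54 and 12.9) and 8.45 for line B (quartiles 6.53 and 12.2), a mean of 8.90 ± 0.639 (SD, n = 2 lines). As percentiles these domain medians lay at 49.8 for line A and 46.0 for line B, close to the middle of lists whose median scores were 9.31 and 9.49. Few domains stood far from the middle. Those above the 75th percentile of their list numbered 2 for line A and 1 for line B, and those below the 25th percentile 9 and 15. The position-locked chains had medians at percentiles 87.3 and 88.0. Over all autosomal chains with summits of the line, most of them short, the medians lay at percentiles 41.5 and 44.9. Domains that scored high in line A tended to score high in line B (Spearman rho = 0.57, Pearson r = 0.59 of the percentiles, across 215 domains that share their libraries and are not independent). Scores had little relation to span (rho = 0.13) or to the distance between lines (rho = -0.02).

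The strongest domain stood apart from the others. It lay on chromosome 8 at 76337831 to 76346619, spanned 8.79 kb and had median scores of 82.4 for line A and 87.3 for line B, with 5 and 7 summits and no H3K4me3. Its distance of 156 bases came from the summits of line B, which had a median of 298 bases to line A, while those of line A had 14 bases to line B. The next by percentile was on chromosome 2 at 20825626 to 20856150, with 34.5 for line A and 30.03 for line B over 30.5 kb, and with 2 and 4 H3K4me3 summits. It was followed by the domain on chromosome 18 at 12363557 to 12388468, with 25.1 and 23.1. Then came chromosome 4 at 119155052 to 119171913, with 29.5 and 18.2, and chromosome 19 at 43367895 to 43384433, with 22.9 and 21.6. These 3 held 2 to 4 H3K4me3 summits in line A and 2 to 7 in line B.

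The widest domain was on chromosome 25 at 2589210 to 2675654 and spanned 86.4 kb. It held 37 H3K27me3 summits for line A and 20 for line B, with median scores of 8.53 and 5.24, and a distance of 1483 bases between lines. Its H3K4me3 summits, 12 for line A and 16 for line B, were the most of any domain. Their median score was 19.6 for line A, below the median of 36.6 of its H3K4me3 list, and 70.5 for line B, above its list median of 56.6. They all lay in the first 48.7 kb of the domain, and the rest, up to 86.4 kb, held H3K27me3 alone. Line B had no H3K27me3 summit from 48.8 to 69.7 kb, while line A had no gap longer than 8.99 kb.

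The domain on chromosome 4 at 69341100 to 69413727 spanned 72.6 kb, with 24 H3K27me3 summits for line A and 23 for line B and median scores of 19.8 and 14.7. H3K4me3 was sparse there, with 2 and 5 summits at median scores of 5.66 and 10.0. A neighbour 30 kb before it, at 69272098 to 69311067, spanned 39.0 kb with 16 and 14 H3K27me3 summits and 3 and 4 H3K4me3 summits. The domain on chromosome 19 at 38544455 to 38605570 spanned 61.1 kb with 19 H3K27me3 summits in each line, at median scores of 12.4 and 12.8. It held almost no H3K4me3, with 1 summit of score 4.98 in line A and none in line B. Among the 3 widest domains, H3K4me3 was thus dense in 1 and sparse in the other 2, while the H3K27me3 scores were higher where it was sparse. These 3 do not stand for the whole. Over all 215 domains the number of H3K4me3 summits was positively related to the H3K27me3 score percentile (rho = 0.39).

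Chromosome 18 at 64189812 to 64244295 carried the fourth widest domain, of 54.5 kb, in which the outermost summits of the lines lay 112 bases apart on one side and 123 on the other. H3K27me3 summits numbered 29 for line A and 18 for line B, and H3K4me3 summits 6 and 7. The domain on chromosome 8 at 62140799 to 62188499, of 47.7 kb, had 16 and 20 H3K27me3 summits and no H3K4me3 summit in either line. The remaining domains among the 10 widest were at 31634473 to 31681954 on chromosome 20, on chromosome 7 at 48549647 to 48596245 and at 13614101 to 13658401, and on chromosome 12 at 32304441 to 32348770. They spanned 44.3 to 47.5 kb and held 1 or 2 H3K4me3 summits in line A and 1 to 4 in line B, with median scores of 6.25 to 10.1 and 5.07 to 12.9.

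**Figure D2:**
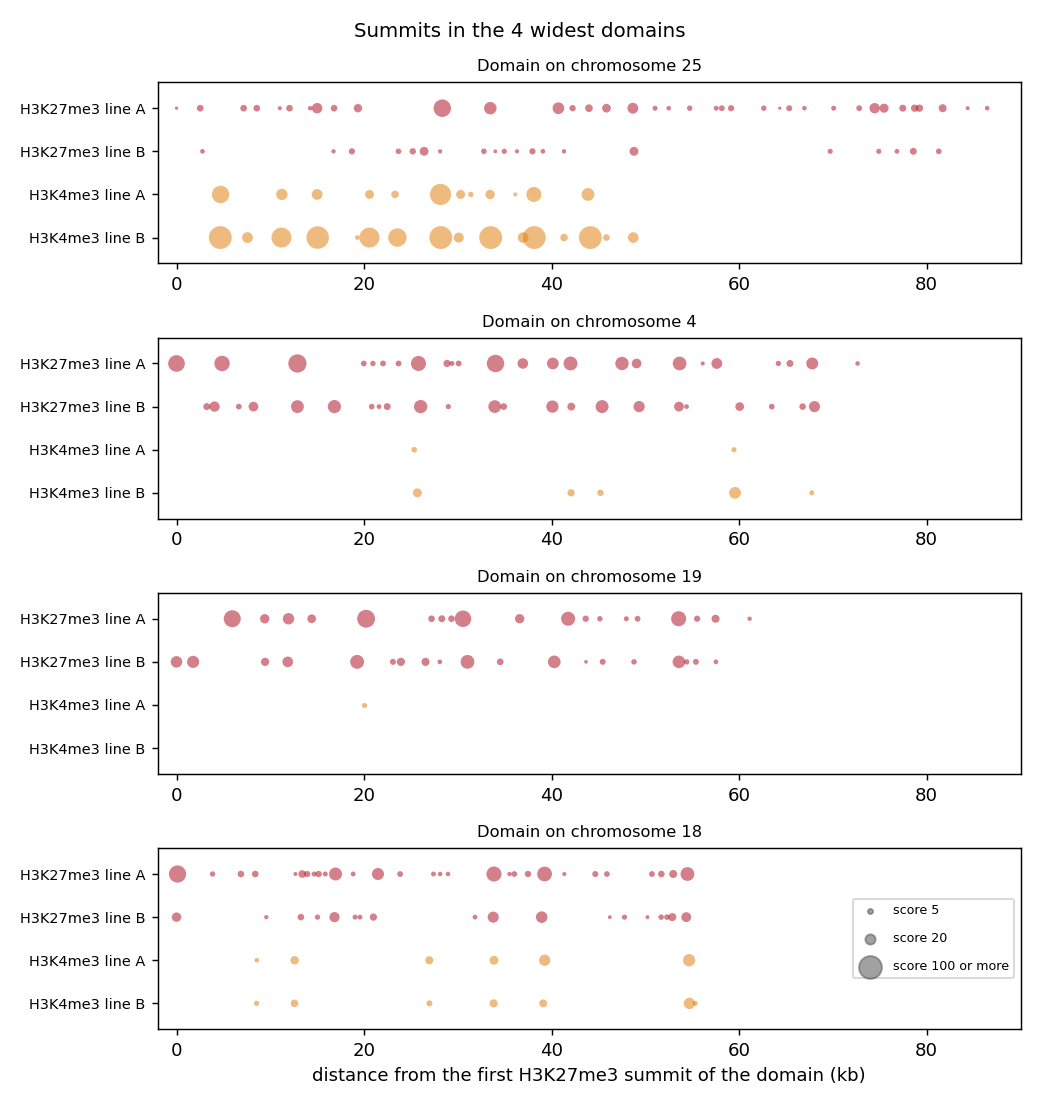
Summits of each mark and line in the 4 widest domains, by distance from the first H3K27me3 summit (kb); the area of a point grows with its score, up to 100. H3K4me3 fills the first 48.7 kb of the domain on chromosome 25, while the domain on chromosome 19 has 1 H3K4me3 summit in line A and none in line B.

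H3K4me3 lay in or beside most domains. Of the 215 domains, 173 had H3K4me3 summits of both lines inside or within 1 kb (80.5%, 95% Wilson interval 74.7% to 85.2%). Another 3 had summits of line A without line B, 12 had those of line B without line A, and 27 had no H3K4me3 at all (12.6%). By line, 176 domains had H3K4me3 for line A (81.9%) and 185 for line B (86.0%), a mean of 84.0% ± 2.96 (SD, n = 2 lines). Over all autosomal H3K27me3 chains these shares were 53.2% and 54.7%, and 42.8% had no H3K4me3. Among the 398 chains with at least 5 summits in each line they were 71.1% and 68.1%, with 24.9% without H3K4me3. In position-locked chains they were 60.5% and 44.7%, with 38.8% without H3K4me3. The share with both lines was 50.6% over all autosomal H3K27me3 chains, which have a median span of 0.237 kb, and 64.1% over the 398 chains with at least 5 summits in each line, the domains included. Among the position-locked chains, whose median span was 17.9 kb, it was 67 of 152 (44.1%, Wilson interval 36.4% to 52.0%). Chains of the X chosen by the same rule had 20 of 105 (19.0%, Wilson interval 12.7% to 27.6%). Wilson intervals cover counting error only, and regions are not independent replicates.

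Wider chains offer more room for H3K4me3, so the shares were also set side by side at like spans. Up to 12 kb, 28 of 38 domains held H3K4me3 of both lines (73.7%), against 13 of 47 position-locked chains (27.7%). From 12 to 17 kb these were 58 of 71 (81.7%) and 7 of 25 (28.0%), and from 17 to 25 kb 51 of 65 (78.5%) and 7 of 17 (41.2%). Above 25 kb they were 36 of 41 (87.8%) and 40 of 63 (63.5%). In each of the 4 ranges of span the share was higher in the domains. These shares count H3K4me3 summits of any score, and most of those in the domains were weak. Summits above the median of their list numbered 45 for line A and 54 for line B in the 215 domains. In the 152 position-locked chains they numbered 60 and 44, so the order of the classes need not hold for strong H3K4me3. Peak scores, and with them summit strength, also differed between these classes, and their part in the shares was not tested.

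**Figure D3:**
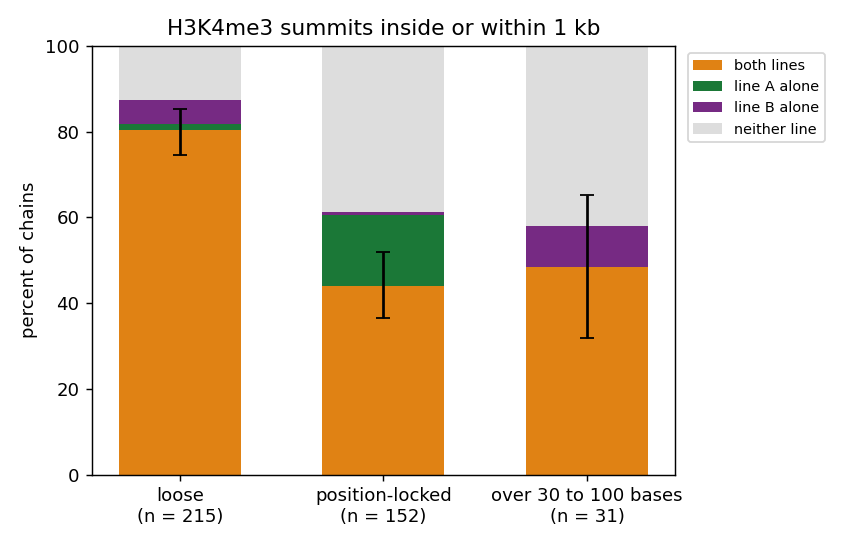
Percent of chains with H3K4me3 summits of both lines, 1 line or neither line inside or within 1 kb, for loose domains, position-locked chains and chains with distances over 30 to 100 bases. Whiskers are 95% Wilson intervals of the share with both lines, which was 80.5% in the domains and 44.1% in position-locked chains.

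The median number of H3K4me3 summits per domain was 2 for line A and 3 for line B, and 84 and 123 domains held at least 3. Such counts were not made for other chains, so they describe the domains alone. In all there were 492 H3K4me3 summits for line A and 692 for line B, which gave 1.06 and 1.49 per 10 kb of domain with flanks of 1 kb, a mean of 1.28 ± 0.305 (SD, n = 2 lines). In position-locked chains the density was 0.652 and 0.292 per 10 kb. Over all autosomal chains with the same flanks it was 1.54 and 1.62, and most of those chains are so short that the flanks make up most of the stretch counted. Line B had more H3K4me3 summits than line A in 109 domains and fewer in 20. Its list was also longer, at 21840 summits against 20908, and with the lists cut to equal length by score the domains held 492 and 602. Domains with more H3K4me3 summits in line A tended to have more in line B (rho = 0.80, r = 0.81 across 215 domains, which share their libraries).

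The domains richest in H3K4me3 after that on chromosome 25 were 4 others. Chromosome 5 at 30984588 to 31014472 had 9 summits for line A and 10 for line B over 29.9 kb. Chromosome 2 at 24484384 to 24514611 had 7 and 11 over 30.2 kb, and chromosome 21 at 10757080 to 10790147 had 7 and 10 over 33.1 kb. Chromosome 12 at 54077616 to 54099222 had 7 in each line over 21.6 kb. Their median H3K4me3 scores were 7.31 to 31.1 in line A and 12.1 to 25.3 in line B, below the list medians of 36.6 and 56.6.

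H3K4me3 within the domains was weak. Its median score was 12.3 for line A and 14.04 for line B, at percentiles 21.0 and 18.6 of the H3K4me3 lists. Low scores were not limited to the domains, since the H3K4me3 summits of position-locked chains had medians of 9.31 and 17.9, at percentiles 15.5 and 22.7. Elsewhere on autosomes, H3K4me3 summits with an H3K27me3 summit within 1 kb had median scores of 23.8 and 39.6, and those without one 46.4 and 71.2. Scores were low both with and without a close H3K27me3 summit. In the domains, H3K4me3 summits with H3K27me3 within 1 kb scored a median of 12.0 for line A and 13.8 for line B, and those without 13.7 and 15.9. Only 45 of 492 summits for line A (9.15%) and 54 of 692 for line B (7.80%) lay above the median of their list. When only summits above the list median counted, 13.0% of domains held H3K4me3 of both lines, against 80.5% with all summits. This share is given for the domains alone, so it cannot be called low or high among H3K27me3 chains. By summit, 16.2% and 26.5% of the H3K4me3 summits of position-locked chains lay above the list median in lines A and B. In chains with distances over 30 and up to 100 bases these shares were 39.3% and 36.8%.

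H3K4me3 summits of line A mostly had a partner in line B, while fewer of those of line B had one in line A. In the domains 454 of the 492 H3K4me3 summits of line A (92.3%) had a partner in line B within 1 kb, and the median distance over all 492 was 89.5 bases. For H3K27me3 in the same domains this median was 426 bases, a value that the rule holds high. From line B, 464 of 692 H3K4me3 summits (67.1%) had one of line A, with a median of 216 bases. Over all autosomal H3K4me3 summits the shares with a partner were 93.7% for line A and 88.6% for line B, at median distances of 59 and 64 bases, so the share for line A lay near this background and that for line B below it. In position-locked chains the shares were 41.8% and 91.0%. The 228 without a partner had a median score of 7.35, against 21.6 for those with one, and the 38 of line A without one had 5.22, against 13.2.

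The marks met closely at part of the H3K4me3 summits. The nearest H3K27me3 summit of the same line lay a median of 359.5 bases away for line A and 405.5 for line B, and within 250 bases at 197 of 492 summits (40.04%) and 265 of 692 (38.3%). In position-locked chains the medians were 31.0 and 30.5 bases, and 77.6% and 74.1% lay within 250 bases. Around the H3K4me3 summits of the domains, H3K27me3 summits were densest within 100 bases, at 1.16 and 1.14 per H3K4me3 summit and kb in lines A and B. From 250 bases outwards, up to 5 kb, the density was between 0.286 and 0.394, and in line B it was lower in each step outwards, at 0.390 from 250 to 500 bases and 0.286 from 4000 to 5000 bases.

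**Figure D4:**
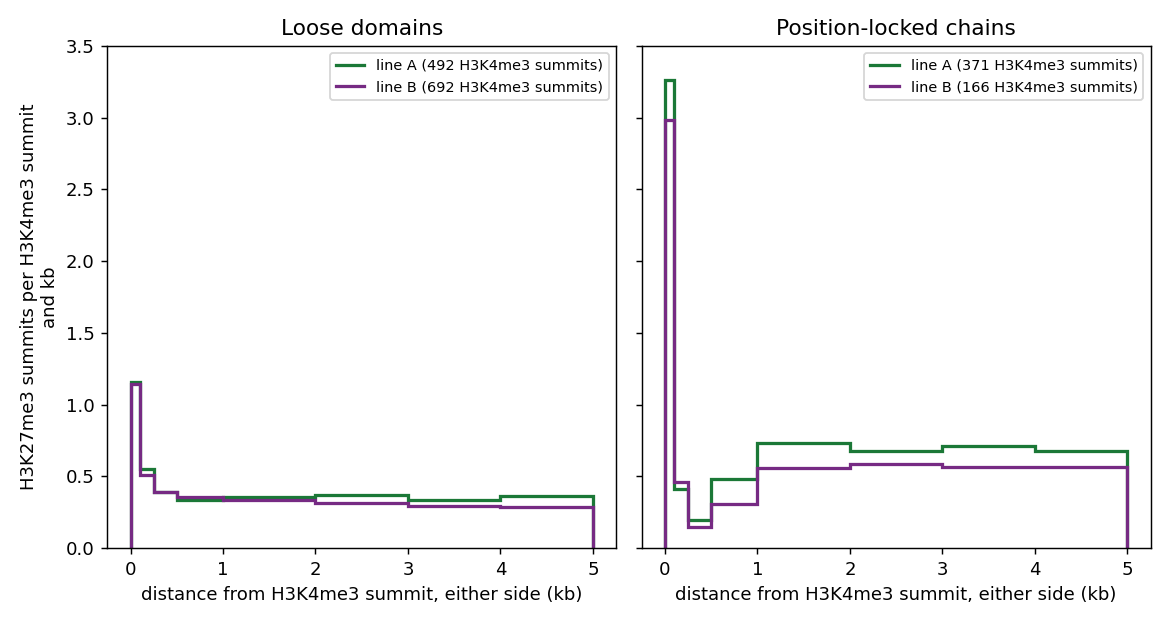
H3K27me3 summits per H3K4me3 summit and kb, by distance from the H3K4me3 summit of the same line (kb, both sides pooled), in loose domains and position-locked chains. Within 100 bases the density is 1.16 for line A and 1.14 for line B in the domains, against 3.26 and 2.98 in position-locked chains.

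H3K27me3 scores were highest near H3K4me3. Within 1 kb of an H3K4me3 summit of the same line, the H3K27me3 summits of the domains had median scores of 16.5 for line A (437 summits) and 12.2 for line B (592), against 7.45 (1556) and 7.27 (1199) farther away. As percentiles of their lists the near summits lay 20.2 and 16.6 points higher, a mean of 18.4 ± 2.58 (SD, n = 2 lines). The score was lower at longer distances in both lines, at 18.1 and 13.8 within 250 bases, 8.53 and 8.32 at 1000 to 2000 bases, and 7.17 and 6.83 beyond 5000 bases. The exception was the step from 250 to 500 bases in line A, where it was 20.5.

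The same held within most single domains. Of the 167 domains with near and far summits in line A, the near ones had the higher median in 148 (88.6%), and in line B this was so in 136 of 179 (76.0%). Over all autosomal chains with at least 5 summits in each line, these domains included, the shares were 85.7% for line A and 79.6% for line B, so the domains lay near this background. In position-locked chains the near summits lay 8.32 and 9.25 percentile points higher than the far ones, at percentiles of 95.0 and 96.3, near the top of the scale. The order of the classes depends on the scale. The log2 ratio of the near to the far median score was 1.15 and 0.75 in the domains, against 1.38 and 1.49 in position-locked chains.

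**Figure D5:**
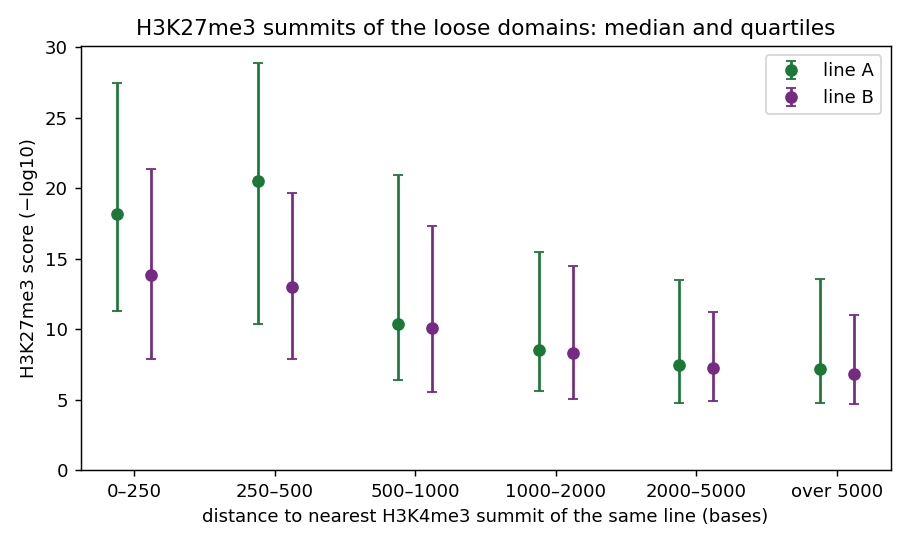
Median H3K27me3 score (−log10) of the summits of the loose domains by distance to the nearest H3K4me3 summit of the same line (bases), with whiskers from the lower to the upper quartile. Medians in lines A and B are 18.1 and 13.8 within 250 bases, and 7.17 and 6.83 beyond 5000 bases.

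The strongest H3K27me3 summit of a domain was also often near H3K4me3. It lay within 1 kb of an H3K4me3 summit in 100 of 215 domains for line A (46.5%) and 119 for line B (55.3%), against 21.9% and 33.1% of all H3K27me3 summits of the domains. Its score had a median of 30.5 for line A and 23.1 for line B. In position-locked chains the strongest H3K27me3 summit lay within 1 kb of H3K4me3 in 30.3% for line A and 21.1% for line B. Of all H3K27me3 summits of those chains, 11.5% and 4.74% did so. The higher share of the strongest summits was thus not limited to the domains. Along the domain, scores varied more in line A than in line B. Over 5 equal segments from one end to the other, the median H3K27me3 score was 7.45 to 10.4 for line A and 7.95 to 9.25 for line B. H3K4me3 summits numbered 84 to 102 per segment for line A and 110 to 151 for line B.

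Domains with H3K4me3 had somewhat higher H3K27me3 scores than those without. The 173 with H3K4me3 of both lines had median scores of 9.51 for line A and 8.83 for line B and a median span of 17.3 kb, against 6.65 and 6.15 and 14.8 kb in the 27 with none. Across the 215 domains the number of H3K4me3 summits was weakly related to the score percentile (rho = 0.39, r = 0.30) and to the span (rho = 0.31, r = 0.35). These relations are a description.

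The widest of the 27 domains without H3K4me3 was that at 62140799 to 62188499 on chromosome 8. The next were at 30722 to 62391 on chromosome 15 (31.7 kb), at 75075465 to 75105865 on chromosome 4 (30.4 kb), at 20331619 to 20360514 on chromosome 19 (28.9 kb) and at 27057795 to 27081628 on chromosome 25 (23.8 kb). All 5 had median H3K27me3 scores below the medians over the domains, of 9.35 for line A and 8.45 for line B. These scores were 3.51 to 5.65 in line A and 3.72 to 8.17 in line B. The domain on chromosome 19 had the 8.17, close to the median of line B. The 5 domains held 10 to 16 H3K27me3 summits in line A and 9 to 20 in line B.

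The domains were spread unevenly over the autosomes. Chromosome 18 was the densest, with 14 domains or 21.2 per 100 Mb, followed by chromosome 3 with 18 (14.8 per 100 Mb) and chromosome 25 with 6 (13.98). The median autosome had 7.77 per 100 Mb. Chromosome 28 had none, and chromosome 27 had 1 domain but 7 position-locked chains. Across the 29 autosomes the density of domains was related to that of H3K4me3 summits (r = 0.51, rho = 0.39), a description over chromosomes of 1 genome.

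Some domains came in runs. With gaps under 50 kb, 43 domains formed 20 runs, 18 of them pairs. The longest run by count was on chromosome 2, where 4 domains lay between 20759302 and 20882976 and covered 89.8 of 124 kb. Its members, in order along the chromosome, had median H3K27me3 scores of 7.06, 10.4, 34.5 and 10.3 in line A and 18.7, 7.81, 30.03 and 18.5 in line B. All 4 carried H3K4me3 of both lines, with 9 summits for line A and 15 for line B. A run of 3 on chromosome 26, from 21759342 to 21845754, held 4 and 8 H3K4me3 summits. On chromosome 3, 6 domains lay between 21012893 and 21426034, among them the 3 nearest to the distance limit. They held 0 to 4 H3K4me3 summits in line A and 0 to 6 in line B.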

How the data were processed

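H3K4me3 and H3K27me3 ChIP libraries of 2 bESC lines gave 4 lists of peak summits; both input libraries were left out, as not analysed here. The submitters' processing notes name BWA, MACS2 and the build UMD3.1, with no versions. Control use of the inputs and filters are not given in the sources used here. Scores, as deposited, were read as −log10 of a p or q value, since the smallest in any list was 2.00. The deposited positions are 1 base long and were counted from 1. The lists hold no counts, so depth is unknown and limits what weak peaks could be called.

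Percentiles of score were taken within each whole list. Chains used summits of autosomes 1 to 29, a gap of at most 5000 bases and distances to the nearest summit of the other list. H3K4me3 counted inside a chain or within 1000 bases of it. Named regions were the 10 widest, the 5 with the highest mean percentile, the 5 with the most H3K4me3, the 5 widest without H3K4me3, and 3 on either side of the distance limit; the runs, the stretch of chromosome 3 and the domains at chromosome starts were chosen after their values were seen. The members and lists were chosen with earlier results of these data known. No test was run, because each mark has 1 library per line. On simulated lists 30 of 30 planted loose and 30 of 30 planted locked chains were found. Their distances were planted well away from the limits, and random summits lay apart from them. The simulation therefore checks that the code follows the rule, and cannot show how real chains near a limit are sorted. The tools were scipy 1.17.1, pandas 2.3.3, numpy 2.4.6 and matplotlib 3.10.9 under Python 3.11.15.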

Additional observations from a re-analysis of the deposited data

How the results depend on the processing

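Of 47 alternatives, 33 left the number of domains within 1.5 times, or moved another value by less than the SD between lines. The other 14 moved it further. A change of sign, seen in 0, was possible only for the percentile difference near H3K4me3, since the other values cannot be negative. The number of domains, 215, was 133 with a chain gap of 3000 bases, 493 with at least 3 summits per line, 37 with at least 10 and 130 with scores of at least 5. The score limit removes summits, the gap changes the chaining, and the minimum number of summits sets which chains are kept. The median span of 16.9 kb was 12.8 kb with a gap of 3000 bases and 23.1 kb with 10000 bases. The share with H3K4me3 of both lines, 80.5%, was 84.1% with a gap of 10000 bases, 83.8% with at least 10 summits per line, 86.2% with scores of at least 5 and 13.0% with H3K4me3 summits above the median of their list. The median score of 8.98 was 12.5 with scores of at least 5 and 10.1 with H3K27me3 lists of equal length.

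With 1 line left out, the span ranged from 15.3 to 16.3 kb, the share with H3K4me3 from 81.9% to 86.0%, the score from 8.45 to 9.35, H3K4me3 per 10 kb from 1.06 to 1.49 and the percentile difference near H3K4me3 from 16.6 to 20.2. With 1 line alone H3K4me3 of the other line was not required. H3K4me3 per 10 kb and the percentile difference are means of the lines. Leaving 1 line out must move such a mean by less than the SD between lines, so these alternatives could not count as moved. The number of domains has no value with 1 line, since the rule needs both. Lists of equal length were chosen after the data were seen. No paired analysis was possible because no test was run. The lists hold summits, so widths of peaks, read depth and weak signal below the peak threshold were not covered.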

Other observations

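H3K4me3 was absent from the domains nearest to the chromosome starts, a group chosen after its values were seen. Within the first 500 kb of an autosome lay 6 domains, 1 on chromosome 2, 2 on chromosome 4, 1 on chromosome 13 and 2 on chromosome 15, and 0 of the 6 had an H3K4me3 summit of either line. Of the other 209 domains 21 had none (10.0%). The first on chromosome 15 began at base 553. The 2 on chromosome 4 lay within 29.9 kb and the 2 on chromosome 15 within 61.8 kb. Each pair was a run with a gap under 50 kb, so the 6 domains do not stand for 6 separate places. Median H3K27me3 scores of the 6 domains were 3.51 to 13.8 for line A and 3.64 to 9.57 for line B. H3K4me3 was also less frequent near chromosome starts over all chains. Of the 196 autosomal H3K27me3 chains in the first 500 kb, 174 had no H3K4me3 summit (88.8%) and 19 had summits of both lines, against 3138 (41.6%) and 3904 of the 7551 elsewhere. The cause was not tested.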
